A study of Mus musculus with 16 samples.

Results

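The genes described are 9 of the 46078 listed for mouse kidney after cisplatin: the annexins Anxa1, Anxa2, Anxa3 and Anxa5, the S100 proteins S100a6, S100a10 and S100a11, and the actin-binding proteins Tmsb10 and Tagln2. They were chosen by name, as members of these families and their actin-binding partners, and all 9 were measured in every library. RNA was sequenced from 16 libraries in 4 groups of 4, all from perfused kidneys of C57BL/6 mice aged 20 weeks, harvested 72 h after an intraperitoneal injection. Mice without preconditioning received cisplatin (BL_cisplatin), a platinum drug that damages the proximal tubule, or 0.9% sodium chloride (BL_vehicle). In 2 more groups cisplatin followed preconditioning, either by calorie restriction for 4 weeks (CR_cisplatin) or by hypoxia for 2, 4 and 8 h on 3 days (HP_cisplatin). No preconditioned group received saline, so a change made by preconditioning alone cannot be told apart from a changed response to cisplatin. Nothing in the labels ties the 16 libraries to separate animals, so a p-value here weighs a difference against the spread between libraries, which may be technical.

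Annexins are proteins that bind acidic phospholipids of cell membranes when calcium rises, and they take part in membrane trafficking, in sealing of damaged membranes and in the link between membrane and cortical actin. S100 proteins are small calcium sensors that work as dimers, and several of them dock onto the N-terminal tail of an annexin: S100a10 joins Anxa2, and S100a11 joins Anxa1 and Anxa2. In the kidney, Anxa2 and S100a6 have been described in regenerating tubule epithelium after acute injury. Values are TPM (transcripts of a gene per 1000000 transcripts of a library), which are scaled by gene length and can therefore be compared between genes, and a log2 difference is a difference of log2(TPM + 1) from limma. That scale understates changes of genes with low values such as Anxa1.

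Recovered read totals were 49180903 to 62604521 per library, and the 9 genes had 169 to 18300 reads each in a library. HP_cisplatin 4 and CR_cisplatin 4 were closer to each other than any other pair: the spread between their read counts was 1.8 times that of counting noise, against 3.37 to 85.8 times in the other 119 pairs. They were kept as separate samples, and hypoxia results are given with and without HP_cisplatin 4. Whether these 2 libraries share a source or carry exchanged labels was not tested. Library titles start with 1 of 2 codes. All BL_cisplatin libraries and CR_cisplatin 1 carry the first code and the remaining 11 libraries the second, so that for BL_cisplatin against BL_vehicle or HP_cisplatin the code and the group cannot be told apart. The proximal tubule markers were present as the tissue label requires, with Slc34a1, a phosphate transporter of that segment, at 1580 to 2170 TPM in BL_vehicle and 18.2 to 30.2 TPM in BL_cisplatin. In bulk kidney, a change in the number of cells of a type and a change in RNA per cell cannot be told apart, and this holds for every value that follows.

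After cisplatin without preconditioning all 9 genes were higher than with saline. The rises ran from 1.68-fold for Anxa5 to 32.5-fold for S100a6 in mean TPM, and in each gene the lowest BL_cisplatin library lay above the highest BL_vehicle library. After calorie restriction the same 9 genes lay near the saline level, and all 9 were lower than in BL_cisplatin, again without overlap. After hypoxia the 4 libraries of 8 of the genes spread from near the saline mean to near or above the cisplatin mean, while those of Anxa1 lay at 0.06 to 0.53 of the distance between these means on the log2 scale. The genes were chosen with earlier results of these data known, and the counts describe them and are no test of the list.

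**Figure D1:**
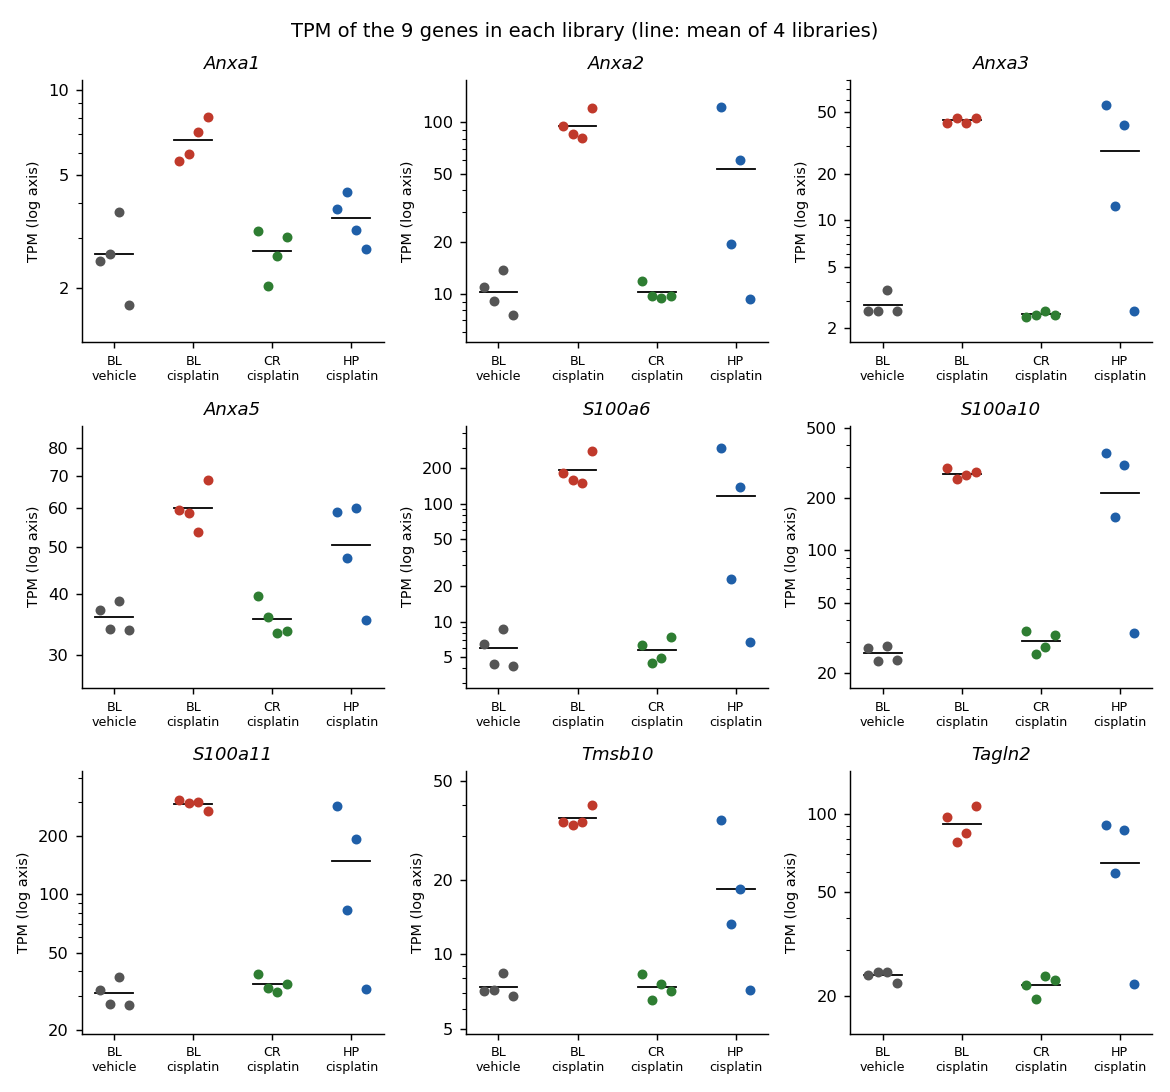
TPM of each of the 9 genes (log axis) in the 4 libraries of each group, with the group mean as a line. All 4 BL_cisplatin libraries lie above all 4 BL_vehicle and all 4 CR_cisplatin libraries in every gene, while the HP_cisplatin libraries of S100a6 run from 6.72 to 299 TPM.

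Of the annexins, Anxa2 is the partner of S100a10 and binds membranes, cortical actin and plasminogen (ENSMUSG00000032231, GRCm38 chromosome 9, 69453620 to 69491795, plus strand). It measured 10.9, 9.10, 13.8 and 7.51 TPM in BL_vehicle 1 to 4 and 94.9, 85.2, 81.0 and 121 TPM in BL_cisplatin 1 to 4. In CR_cisplatin 1 to 4 it measured 11.9, 9.76, 9.44 and 9.64 TPM, and in HP_cisplatin 1 to 4 it measured 123, 19.6, 60.5 and 9.32 TPM. The BL_cisplatin libraries stood apart from saline and calorie restriction, and the hypoxia libraries held both the highest value of the gene and a value inside the saline range. Against BL_vehicle the rise was 9.26-fold, from 10.3 ± 2.68 to 95.4 ± 17.8 TPM (SD, n = 4), with a log2 difference of 3.10 (SE 0.54, limma with Benjamini-Hochberg adjustment, adjusted p = 0.000211). Its exons share 98 bases with the antisense gene Gm16144, which had 1 read in all libraries together.

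Anxa3, another annexin that binds phospholipid, had the steepest rise of the 4 annexins (ENSMUSG00000029484, chromosome 5, 96793339 to 96845966, plus strand). It measured 2.60, 2.58, 3.51 and 2.59 TPM in BL_vehicle 1 to 4, and 42.7, 45.9, 42.3 and 46.0 TPM in BL_cisplatin 1 to 4. The calorie-restricted libraries measured 2.38, 2.43, 2.58 and 2.45 TPM, and the hypoxia libraries measured 55.3, 12.3, 41.3 and 2.60 TPM. Both the cisplatin group and the calorie-restricted group were tight, with coefficients of variation of 4.47% and 3.45%, against 88.1% after hypoxia. The mean rose 15.7-fold with cisplatin, by 3.57 on the log2 scale (SE 0.59, limma, adjusted p = 0.00015). Of its exon bases 3.1% are shared with Gm42603, an unconfirmed transcript on the same strand at 0.213 to 3.107 TPM, so a small part of the reads is uncertain.

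Anxa1 is regulated by glucocorticoids and limits inflammation through formyl peptide receptors (ENSMUSG00000024659, chromosome 19, 20373428 to 20390944, minus strand). It had the lowest mean of the 9 in every group but CR_cisplatin, where Anxa3 was lower. BL_vehicle 1 to 4 measured 2.5, 2.64, 3.72 and 1.74 TPM, and BL_cisplatin 1 to 4 measured 5.62, 5.96, 7.12 and 8.07 TPM. In CR_cisplatin it measured 3.18, 2.04, 2.59 and 3.04 TPM, and in HP_cisplatin 3.80, 4.36, 3.21 and 2.76 TPM. Here all 4 hypoxia libraries lay below all 4 BL_cisplatin libraries, unlike in the other 8 genes. Among all tested genes 9.07% did so, a share near 1 of 9. The rise with cisplatin was 2.53-fold, or 1.09 on the log2 scale (SE 0.16, limma, adjusted p = 8.43e-05).

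Anxa5, which binds the phosphatidylserine exposed on dying or damaged cells, had the highest mean of the 9 in BL_vehicle and the smallest rise (ENSMUSG00000027712, chromosome 3, 36448923 to 36475894, minus strand). BL_vehicle 1 to 4 measured 37.1, 33.9, 38.6 and 33.7 TPM, and BL_cisplatin 1 to 4 measured 59.7, 58.6, 53.6 and 68.6 TPM. Calorie-restricted libraries measured 39.6, 35.8, 33.2 and 33.5 TPM, and hypoxia libraries measured 59.1, 47.4, 60.1 and 35.4 TPM. Only HP_cisplatin 4 of the hypoxia libraries fell inside the saline range, and the cisplatin group did not overlap with saline. The difference from saline was 0.73 on the log2 scale (SE 0.14, limma, adjusted p = 0.000404).

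The 3 S100 genes lie on chromosome 3 on the plus strand. S100a6, or calcyclin, is a calcium sensor found in growing cells (ENSMUSG00000001025, 90612882 to 90624181), in the cluster that also holds S100a1, S100a8, S100a9 and S100a16. S100a11 (ENSMUSG00000027907, 93520488 to 93526287) and S100a10 (ENSMUSG00000041959, 93555080 to 93564643) are neighbours outside that cluster.

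S100a6 had the largest rise of the 9. BL_vehicle 1 to 4 measured 6.44, 4.37, 8.65 and 4.22 TPM, and BL_cisplatin 1 to 4 measured 183, 158, 149 and 280 TPM. After calorie restriction it measured 6.37, 4.41, 4.86 and 7.45 TPM, and after hypoxia 299, 22.8, 140 and 6.72 TPM. HP_cisplatin 1 exceeded every cisplatin library, HP_cisplatin 3 lay just under them, and HP_cisplatin 4 lay among the saline libraries. The mean rose 32.5-fold with cisplatin, from 5.92 ± 2.08 to 192 ± 60.0 TPM (SD, n = 4), a log2 difference of 4.81 (SE 0.81, limma, adjusted p = 0.000169).

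S100a10 does not need calcium to bind Anxa2, and its pair with Anxa2 brings plasminogen and its activator to the cell surface. It measured 27.9, 23.6, 28.5 and 23.7 TPM in BL_vehicle 1 to 4 and 296, 254, 268 and 280 TPM in BL_cisplatin 1 to 4. In CR_cisplatin it measured 34.9, 25.8, 28.2 and 32.8 TPM, and in HP_cisplatin 359, 154, 306 and 33.8 TPM. Of the 9 genes it alone had all 4 hypoxia libraries above all 4 saline libraries, HP_cisplatin 4 by the smallest margin. Among all tested genes 8.50% did so, a share near 1 of 9. The rise with cisplatin was 10.6-fold, or 3.36 on the log2 scale (SE 0.51, limma, adjusted p = 8.78e-05).

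S100a11, a calcium sensor that docks onto Anxa1 and Anxa2 and takes part in membrane repair, had the highest mean of the 9 in BL_cisplatin. It measured 32.2, 27.3, 37.5 and 26.9 TPM with saline and 307, 297, 302 and 270 TPM with cisplatin. Calorie-restricted libraries measured 38.9, 32.9, 31.3 and 34.6 TPM, and hypoxia libraries 288, 83.6, 193 and 32.4 TPM. HP_cisplatin 1 reached the cisplatin range, HP_cisplatin 2 and 3 lay between the groups, and HP_cisplatin 4 lay within the saline range. The rise was 9.49-fold, or 3.22 on the log2 scale (SE 0.46, limma, adjusted p = 6.68e-05). The pseudogene S100a11-ps, to which reads could be misassigned, was at 0 to 0.346 TPM.

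Of the actin-binding genes, Tmsb10 encodes a short peptide that holds actin monomers (ENSMUSG00000079523, chromosome 6, 72957347 to 72958748, minus strand). BL_vehicle measured 7.09, 7.17, 8.38 and 6.77 TPM and BL_cisplatin 34.3, 33.3, 34.2 and 40.0 TPM. CR_cisplatin measured 8.33, 6.54, 7.60 and 7.14 TPM and HP_cisplatin 34.8, 13.2, 18.3 and 7.19 TPM. HP_cisplatin 1 matched the cisplatin group, while the other 3 lay below it. The mean rose 4.82-fold with cisplatin, or 2.13 on the log2 scale (SE 0.30, limma, adjusted p = 6.19e-05).

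Tagln2, transgelin 2, is an actin filament-binding protein of the calponin family (ENSMUSG00000026547, chromosome 1, 172500047 to 172507380, plus strand). It measured 24.1, 24.7, 24.8 and 22.5 TPM in BL_vehicle and 96.9, 78.2, 84.3 and 107 TPM in BL_cisplatin. After calorie restriction it measured 22.1, 19.5, 23.8 and 23.1 TPM, and after hypoxia 90.4, 59.1, 86.7 and 22.3 TPM. HP_cisplatin 1 and 3 lay inside the cisplatin range and HP_cisplatin 4 just under the saline range. The rise with cisplatin was 3.81-fold, or 1.88 on the log2 scale (SE 0.31, limma, adjusted p = 0.000152).

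The order of the 9 levels differed between saline and cisplatin. In BL_vehicle the means ran from Anxa5 (35.8 TPM), S100a11 (31.0), S100a10 (25.9) and Tagln2 (24) through Anxa2 (10.3), Tmsb10 (7.35) and S100a6 (5.92) to Anxa3 (2.82) and Anxa1 (2.65). Neighbours in that order overlapped in their libraries except Tagln2 and Anxa2, and S100a6 and Anxa3. In BL_cisplatin the order was S100a11 (294 TPM), S100a10 (274), S100a6 (192), Anxa2 (95.4), Tagln2 (91.7), Anxa5 (60.1), Anxa3 (44.2), Tmsb10 (35.4) and Anxa1 (6.69). S100a11 and S100a10 overlapped there, as did S100a10 and S100a6, and Anxa2 and Tagln2, and the other neighbours did not. S100a6 thus passed from the seventh to the third place, and Anxa5 from the first to the sixth. The 9 genes together made up 130 to 168 TPM in BL_vehicle, 1020 to 1220 TPM in BL_cisplatin and 139 to 168 TPM in CR_cisplatin.

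Read against all genes, the count of 9 higher of 9 stands beside 38.0% of the 15014 tested genes called higher in BL_cisplatin than in BL_vehicle, and the 9 without overlap stand beside 37.0%. The median log2 difference was 3.10 over the 9 genes and 0.08 over all tested genes. With the title code as a term, for which CR_cisplatin 1 is the only bridge, 5 of 9 kept an adjusted p under 0.05: Anxa3 (3.61, adjusted p = 0.0443, limma), S100a10 (3.09, 0.0447), S100a11 (2.98, 0.0397), Tmsb10 (1.92, 0.0401) and Tagln2 (1.87, 0.0461). The others were Anxa1 (0.85, 0.0631), Anxa2 (2.82, 0.0661), Anxa5 (0.52, 0.152) and S100a6 (4.61, 0.0529), and 8 of the 9 had an unadjusted p under 0.05. Of all 15014 genes, that fit called 3413 in either direction, and 6484 had an unadjusted p under 0.05.

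**Figure D2:**
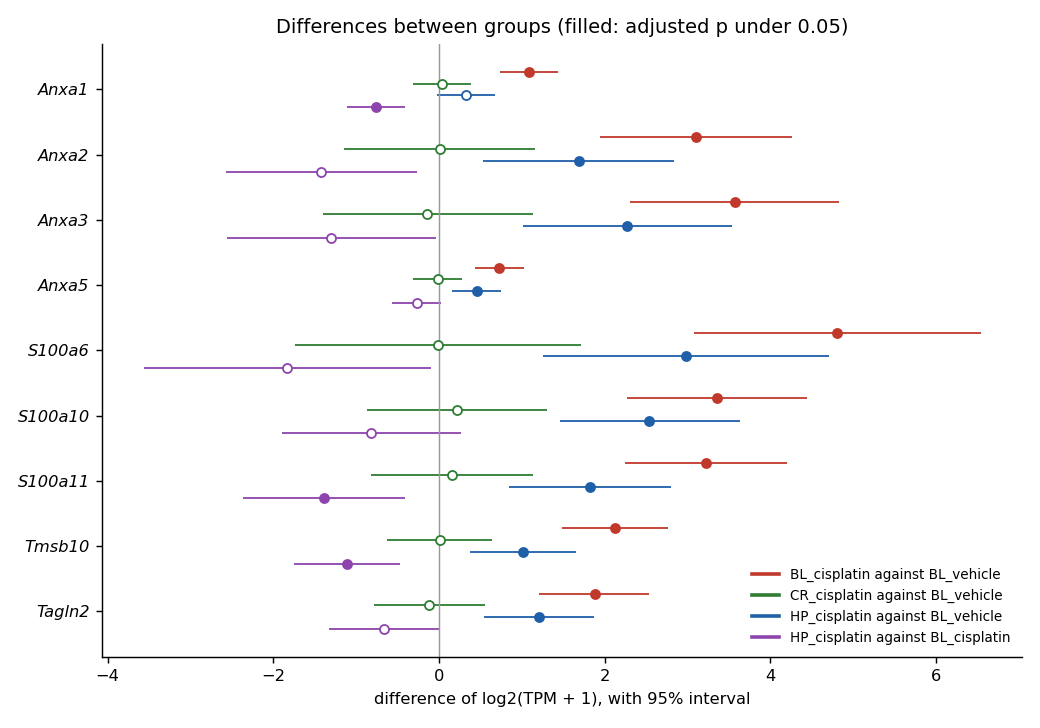
Difference of log2(TPM + 1) with its 95% interval for each of the 9 genes in 4 of the comparisons, filled where the adjusted p was under 0.05. Cisplatin against saline lies right of 0 for all 9 genes, from 0.73 to 4.81, and calorie restriction against saline lies between -0.14 and 0.22.

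Calorie restriction before cisplatin left all 9 genes lower than cisplatin alone, beside 37.4% of all tested genes called lower and 37.3% without overlap. The fall was 33.3-fold for S100a6 (log2 difference -4.81, SE 0.81, limma, adjusted p = 0.000175), 18-fold for Anxa3 (-3.71, SE 0.59, 0.000126) and 9.37-fold for Anxa2 (-3.10, SE 0.54, 0.000223). For S100a10 it was 9.02-fold, for S100a11 8.54-fold, for Tmsb10 4.79-fold and for Tagln2 4.14-fold. Anxa1 (2.47-fold, -1.05, SE 0.16, 0.000112) and Anxa5 (1.69-fold, -0.74, SE 0.14, 0.000368) fell least. CR_cisplatin 1, which shares its title code with the BL_cisplatin libraries, measured 6.37 TPM of S100a6 where those 4 measured 149 to 280 TPM. The 9 were also called with any library left out. Of all 15014 genes the fits without a library called 9390 to 10441, in either direction. With the code as a term the difference rests on CR_cisplatin 1 alone, set against the BL_cisplatin libraries. For S100a6 it was -4.67.

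Against saline, none of the 9 genes passed the test after calorie restriction, beside 0.0533% of all tested genes called in either direction with limma. None had an unadjusted p under 0.05, and voom on recovered reads called none as well. The differences ran from -0.14 for Anxa3 to 0.22 for S100a10, with a median of 0.01 for the 9 and for all genes. The 95% interval was -0.31 to 0.28 for Anxa5, but -1.74 to 1.72 for S100a6 and -0.87 to 1.30 for S100a10, so that a 2-fold rise lies within the intervals of S100a6 and S100a10. It also lies within those of Anxa2 (-1.15 to 1.16), Anxa3 (-1.40 to 1.13) and S100a11 (-0.82 to 1.14). The fit gave all 4 groups 1 shared spread, so these intervals also carry the spread of the hypoxia libraries. The coefficient of variation of S100a6 was 115% after hypoxia, against 35.2% with saline and 24.2% after calorie restriction. That of Anxa3 was 88.1%, 16.2% and 3.45% in the same order. Anxa3 was lower or equal in all CR_cisplatin libraries (2.38 to 2.58 TPM) compared with saline (2.58 to 3.51 TPM), a difference of -0.14 with an adjusted p = 1.

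After hypoxia, each gene's 4 libraries can be placed on a scale on which 0 is the BL_vehicle mean and 1 the BL_cisplatin mean of log2(TPM + 1). The median over the 9 genes was 1.00 in HP_cisplatin 1, 0.51 in HP_cisplatin 2, 0.91 in HP_cisplatin 3 and -0.01 in HP_cisplatin 4. The corresponding medians of the calorie-restricted libraries were -0.04 to 0.08. For the 8 genes other than Anxa1 the hypoxia libraries thus reached from at most 0.11 to at least 0.97 on this scale, and for these a group mean describes the single libraries poorly. The coefficient of variation within HP_cisplatin ran from 19.8% for Anxa1 to 115% for S100a6, and summed TPM of the 9 were 1310, 416, 909 and 152 in HP_cisplatin 1 to 4.

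Genes took different places within the same library. In HP_cisplatin 2, S100a10 stood at 0.75 and Tagln2 at 0.67, while Anxa2 stood at 0.29 and Tmsb10 and S100a6 at 0.36 and 0.38. In HP_cisplatin 3, S100a10 and Anxa5 were at 1.05 and 1.01, and Tmsb10 at 0.57. Anxa1 was at 0.39 in HP_cisplatin 1, where the other 8 genes stood from 0.97 to 1.14, and at 0.21 in HP_cisplatin 3. Of the 9, Anxa1 was the gene that stayed low in the libraries where the others were high. These places are single values per library, and no test of the difference between genes was made.

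**Figure D3:**
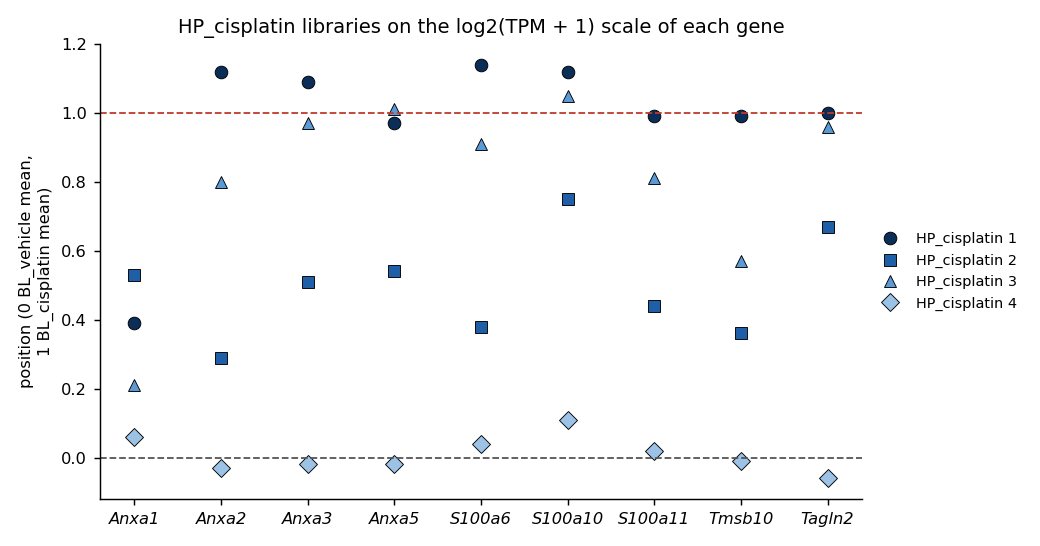
Place of the 4 HP_cisplatin libraries between the BL_vehicle mean (0) and the BL_cisplatin mean (1) of log2(TPM + 1), for each of the 9 genes. HP_cisplatin 4 lies between -0.06 and 0.11 in all genes, and Anxa1 in HP_cisplatin 1 lies at 0.39 where the other 8 genes lie at 0.97 or above.

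Compared with cisplatin alone, 3 of the 9 genes were lower after hypoxia: Anxa1 (log2 difference -0.76, SE 0.16, limma, adjusted p = 0.00749), S100a11 (-1.39, SE 0.46, 0.0355) and Tmsb10 (-1.11, SE 0.30, 0.0163). Of all tested genes 13.1% were called lower, and 9.07% were lower without overlap, as was Anxa1 alone among the 9. The remaining 6 did not pass, with differences of -1.42 for Anxa2 (adjusted p = 0.0605), -1.83 for S100a6 (0.0976), -1.30 for Anxa3 (0.106), -0.67 for Tagln2 (0.113), -0.27 for Anxa5 (0.146) and -0.82 for S100a10 (0.228). For S100a10 the 95% interval was -1.90 to 0.27. The count rested on single libraries: it was 8 without HP_cisplatin 1, 1 without HP_cisplatin 2, 5 without HP_cisplatin 3 and 2 without HP_cisplatin 4. In the same order these fits called 7156, 2210, 4016 and 2883 of 15014 genes in either direction. Without HP_cisplatin 4, Anxa1 (-0.68, limma, adjusted p = 0.0185) and Tmsb10 (-0.76, 0.0285) passed, S100a11 did not (-0.81, 0.0613), and S100a10 was at -0.09 (0.788). With only these 2 groups fitted, or with the title code as a term, none of the 9 passed and no gene at all was called by limma. At an unadjusted p under 0.05 these fits gave 3 and 0 of the 9, and 4273 and 1564 of all genes.

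Compared with saline, 8 of the 9 were higher after hypoxia, beside 19.2% of all tested genes, while Anxa1 did not pass (0.33, SE 0.16, limma, adjusted p = 0.135). The differences were 2.98 for S100a6 (adjusted p = 0.0201), 2.54 for S100a10 (0.00976), 2.27 for Anxa3 (0.0176), 1.82 for S100a11 (0.0166), 1.69 for Anxa2 (0.034), 1.21 for Tagln2 (0.0172), 1.02 for Tmsb10 (0.0254) and 0.46 for Anxa5 (0.0288). S100a10 alone did not overlap with saline, against 8.50% of all genes. Without HP_cisplatin 4 the same 8 passed with larger differences, such as 3.90 for S100a6 (0.000159) and 3.26 for S100a10 (1.91e-07), and Anxa1 was at 0.41 (0.0568). In that fit 7709 of 15014 genes were called in either direction. Without HP_cisplatin 3 only S100a10 passed (1 of 9), without HP_cisplatin 1 there were 4, and without BL_vehicle 1, 2 or 4 there were 5. Of all genes, 692 were called without HP_cisplatin 3, 1911 without HP_cisplatin 1 and 2134 to 2561 without these saline libraries. Fitted on these 2 groups only, 0 of 9 passed with limma and 8 had an unadjusted p under 0.05. Of all genes, 11 passed and 4559 had an unadjusted p under 0.05 there.

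Between the preconditioned groups, 8 of the 9 were lower in CR_cisplatin than in HP_cisplatin, beside 15.0% of all tested genes called lower. The differences ran from -0.47 for Anxa5 (SE 0.14, limma, adjusted p = 0.0325) to -2.99 for S100a6 (SE 0.81, 0.0283), and Anxa1 did not pass (-0.29, SE 0.16, 0.189). Anxa3 was the only one of the 9 whose libraries did not overlap, as in 3.84% of all genes. The calls were fragile: 0 of 9 passed without any of CR_cisplatin 1 to 4, without HP_cisplatin 1, without HP_cisplatin 3, with the title code as a term, with only these 2 groups fitted, or without a filter on low values. In each of these fits limma called no gene at all, while 8 of the 9 had an unadjusted p under 0.05. Of all genes, 4698 to 5687 had one in the fits without a library, 5553 with the code, 4353 with 2 groups and 8511 of 32198 without a filter. Without HP_cisplatin 4 the same 8 passed, with -3.19 for Anxa3 (7.27e-06), beside 7654 of 15014 genes called in either direction.

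S100a10 and Anxa2 work as a pair, and the ratio of their TPM was similar in 3 groups. It was 2.56, 2.59, 2.07 and 3.16 in BL_vehicle, 3.11, 2.99, 3.30 and 2.32 in BL_cisplatin and 2.94, 2.65, 2.99 and 3.40 in CR_cisplatin. The RNA of both partners thus rose by a like factor with cisplatin, and the libraries of these groups overlapped in the ratio. In HP_cisplatin 1 to 4 it was 2.92, 7.87, 5.06 and 3.63, so that HP_cisplatin 2 and 3, and by a small margin HP_cisplatin 4, held more S100a10 per Anxa2 than any library of the other groups. For S100a6 over Anxa2 the mean ratio was 0.566 ± 0.0632 in BL_vehicle, 1.99 ± 0.226 in BL_cisplatin and 0.569 ± 0.141 in CR_cisplatin (SD, n = 4). For S100a11 over Anxa1 it was 12.2 ± 2.52, 45.1 ± 9.26 and 13 ± 2.13 in the same groups. The S100 gene rose more than its annexin in these last pairs. Ratios are given as a description and were not tested.

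**Figure D4:**
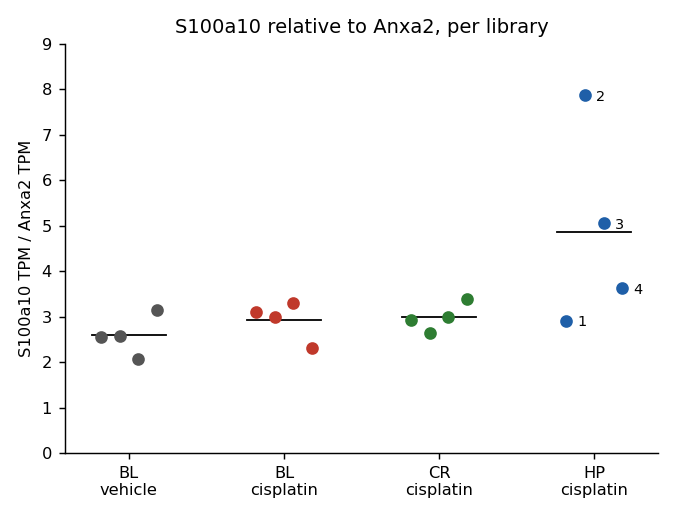
Ratio of S100a10 TPM to Anxa2 TPM in each library, by group, with the group mean as a line and the hypoxia libraries numbered. Saline, cisplatin and calorie-restricted libraries lie between 2.07 and 3.40, and HP_cisplatin 2 and 3 lie at 7.87 and 5.06.

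Promoter stretches of 3 genes are printed to show where the AP-1 motif lies in Anxa2 and S100a11, which rose 9.26- and 9.49-fold, beside S100a6, which rose 32.5-fold and does not hold it. AP-1 is the dimer of Jun and Fos proteins. The sequences are from RefSeq on GRCm38.p6, plus strand, 5′ to 3′, and end just before the GENCODE start of each gene, with matches to TGANTCA in capitals.
Anxa2, chr9:69453433-69453619: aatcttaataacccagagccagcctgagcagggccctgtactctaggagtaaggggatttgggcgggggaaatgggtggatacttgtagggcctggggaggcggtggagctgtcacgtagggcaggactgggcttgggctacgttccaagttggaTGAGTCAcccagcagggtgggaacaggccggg
S100a11, chr3:93520246-93520487: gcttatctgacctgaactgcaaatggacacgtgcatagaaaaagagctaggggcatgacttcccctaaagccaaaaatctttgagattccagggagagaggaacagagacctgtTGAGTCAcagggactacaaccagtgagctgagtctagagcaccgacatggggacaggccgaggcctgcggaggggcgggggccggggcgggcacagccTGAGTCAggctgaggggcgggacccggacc
S100a6, chr3:90612644-90612881: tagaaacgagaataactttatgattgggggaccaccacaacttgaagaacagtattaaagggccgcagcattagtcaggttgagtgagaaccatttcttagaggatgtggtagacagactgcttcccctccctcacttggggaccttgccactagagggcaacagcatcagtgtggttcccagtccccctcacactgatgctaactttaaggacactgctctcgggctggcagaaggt

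RefSeq promoters were found for 7 of the 9 genes, all but Anxa3 and S100a10, and the 250 bases before each start were searched on both strands. Positions count from the RefSeq start. In Anxa2 and S100a11 that start lies downstream of the GENCODE start, so positions do not count from the end of the printed stretches. TGANTCA was found in 6.7% of 32536 promoters, once in Anxa2 (positions -95 to -89) and at 2 places in S100a11 (-136 to -130 and -38 to -32), and not in Anxa1, Anxa5, S100a6, Tmsb10 or Tagln2. GGGCGG, the GC box, was in 33.0% of promoters and in those of Anxa2, S100a11, Tmsb10 and Tagln2. TATAAA was in 12.3% and in those of Anxa1 and Anxa2, and GGAATG, bound by TEAD factors, was in 12.6% and in those of Anxa1 and Tagln2. The p53 motif of 10 letters (1 arm of its site) was in 7.1% and in that of Anxa1. No match was found in the 7 for TTCNNNGAA (STAT, 7.0%), the CArG box of serum response factor (1.5%) or the NF-kB motif (3.9%). A match is a run of letters in this window and shows no binding.

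Over the 16 libraries the 9 genes followed each other in log2(TPM + 1), with Pearson r of 0.95 to 0.99 among 8 of them and of 0.79 to 0.87 between Anxa1 and the others. The libraries share the same groups, so these values describe the split between groups. Among 5912 other genes with a mean of at least 3 on that scale, those most like Anxa2 were Ahnak (r = 0.997), Myh9 (0.995) and Lamc1 (0.994). For S100a10 they were A4galt (0.996), Aaas (0.995) and Tmem43 (0.995), for S100a11 Rras (0.997), Arpc1b (0.997) and Akr1b8 (0.996), and for S100a6 Rock2, Capn2 and Tinagl1 (0.993 each). Anxa3 was most like Col18a1, Zbtb38 and Perp (0.996 each), and Anxa5 like Esyt2 (0.986), Rab12 (0.985) and Capn2 (0.984). Tmsb10 was most like Ptpn12 (0.997), Smad3 (0.996) and Clic1 (0.996), and Tagln2 like Ercc5 (0.995), Ifngr2 (0.995) and Nfkb2 (0.993). Anxa1 had the loosest likeness, with Tmod3 (0.948), Jmjd1c (0.946) and Hist1h3f (0.937).

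The genes of related lists were read against all tested genes, of which 38.0% were called higher and 28.8% lower with cisplatin. Of 8 other annexins 7 were tested, and 5 rose, 1 fell and 1 did not pass against saline, with a median log2 difference of 0.27 beside 0.08 over all tested genes. Anxa4 rose from 13.2 ± 1.08 to 36.8 ± 3.08 TPM (SD, n = 4; 1.41, SE 0.25, limma, adjusted p = 0.000261) and Anxa8 from 0.293 to 1.58 TPM (0.99, SE 0.19, 0.000372). Anxa8, at most 0.497 TPM with saline, passed the filter on low values only through cisplatin groups, so its call is no independent test. Anxa13 fell from 3.65 ± 0.547 to 0.36 ± 0.141 TPM (-1.77, SE 0.26, 7.17e-05), the opposite direction to Anxa1, Anxa2, Anxa3 and Anxa5. In HP_cisplatin 1 to 4 Anxa4 measured 42.4, 18.7, 31.6 and 12.5 TPM, high and low in the same libraries as Anxa2. None of the 7 passed between calorie restriction and saline. Anxa13 still measured 1.60 to 2.82 TPM after calorie restriction and 3.13 to 4.17 TPM with saline (-0.55, SE 0.26). Anxa7 measured 32.8 to 36.1 and 39.9 to 41.6 TPM (-0.25, SE 0.11). The differences of the others ran from -0.04 for Anxa11 to 0.10 for Anxa9.

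Of the other S100 genes 6 of 13 passed the filter on low values; 3 rose, 2 fell and 1 did not pass with cisplatin, with a median of 0.50. With 6 tested genes, these counts lie near the 38.0% higher and 28.8% lower among all genes. S100a8 and S100a9, subunits of calprotectin and abundant in neutrophils, rose from 0.035 to 1.40 TPM (1.19, limma, adjusted p = 0.000137) and from 0.154 to 2.97 TPM (1.74, 0.000149). Both were under 1 TPM in every saline library and passed the filter only through cisplatin groups, so these calls are no independent test. S100a16 rose from 12.4 to 21.1 TPM (0.72, 0.000411). S100a1 fell from 118 to 86.1 TPM (-0.45, 0.00599) and S100g, the calbindin of distal tubule calcium transport, from 560 to 353 TPM (-0.68, 0.0188). The lowest-expressed of the 3 members, S100a6, thus passed S100a1 in level with cisplatin, while its neighbours S100a8 and S100a9 stayed under 5 TPM in every library.

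Of 10 thymosin and calponin relatives 4 were tested, 2 rose and 2 did not pass, also near the share of all genes. Tmsb4x, the close relative of Tmsb10, rose from 63.7 ± 7.60 to 102 ± 15.8 TPM (SD, n = 4; 0.67, SE 0.13, limma, adjusted p = 0.000446), a smaller rise from a higher level than that of Tmsb10. After hypoxia it measured 66.9, 69.4, 53.4 and 61.1 TPM, all below BL_cisplatin (-0.69, adjusted p = 0.00526), whereas Tmsb10 had 1 library at the cisplatin level. Cnn3, a calponin, rose from 45.6 to 81.1 TPM (0.82, 0.000304).

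**Figure D5:**
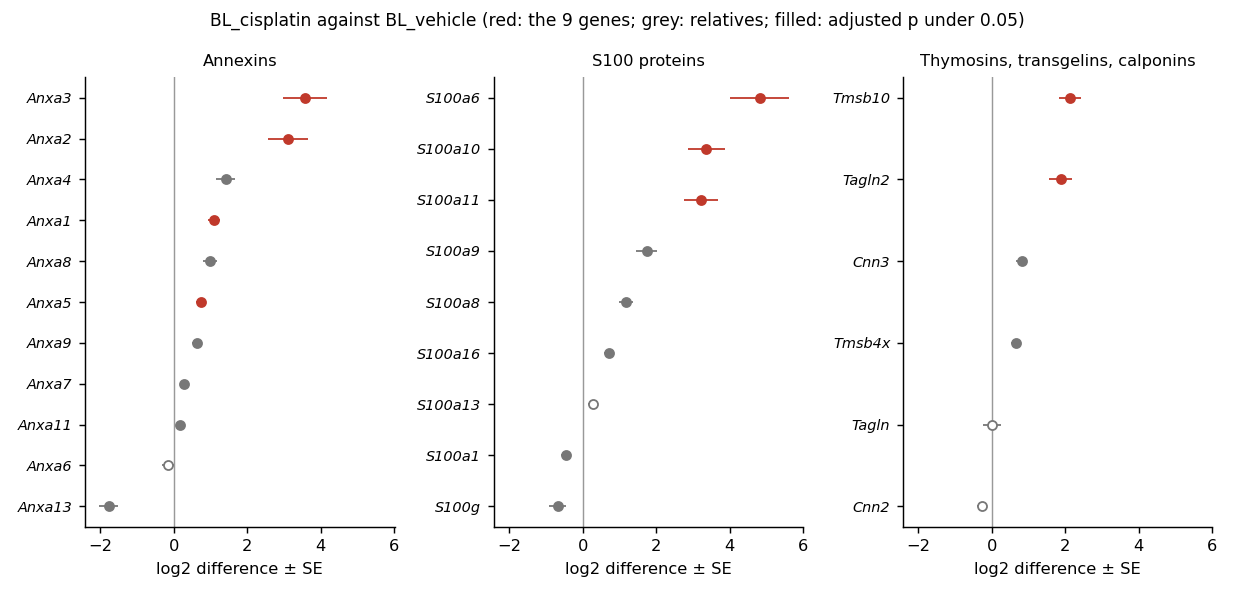
Log2 difference with its SE between BL_cisplatin and BL_vehicle for the 9 genes (red) and their tested relatives (grey), filled where the adjusted p was under 0.05. S100a6 lies at 4.81 and S100g at -0.68, and Anxa13 lies at -1.77 where Anxa3 lies at 3.57.

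Of 14 receptors and binding partners of these proteins 9 were tested; 6 rose, 1 fell and 2 did not pass with cisplatin, beside 38.0% higher and 28.8% lower among all genes, with a median of 0.70. Plat, the tissue plasminogen activator whose action the pair of Anxa2 and S100a10 enhances, rose from 20.0 ± 1.70 to 151 ± 26.8 TPM (SD, n = 4; 2.84, SE 0.47, limma, adjusted p = 0.000153). Ahnak, a large scaffold that S100a10 binds, rose from 34.4 to 156 TPM (2.16, 0.000173). Tlr4, a receptor of S100a8 and S100a9, rose from 1.10 to 2.41 TPM (0.70, 4.68e-05) and Trpv6, a calcium channel that S100a10 binds, from 0.338 to 1.93 TPM (1.12, 8.78e-05). Trpv6, at most 0.365 TPM with saline, passed the filter only through cisplatin groups, so its call is no independent test. Cacybp, the calcyclin-binding protein, fell from 12.8 to 9.16 TPM (-0.44, 0.0176) while S100a6 rose. After hypoxia 3 of the 9 were lower than with cisplatin alone, beside 13.1% of all genes.

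Of 26 cortical actin genes 22 rose, 3 fell and 1 did not pass with cisplatin, beside 38.0% higher and 28.8% lower among all genes, with a median of 0.94. Tpm4, a tropomyosin, rose from 26.3 to 102 TPM (1.91, limma, adjusted p = 5.69e-05), and Vim, an intermediate filament protein, from 5.68 to 22.2 TPM (1.76, 4.56e-05). Vil1, the villin of the brush border, fell from 57.8 to 35.9 TPM (-0.68, 4.18e-05), Rdx from 50.7 to 30.6 TPM (-0.72, 0.000107) and Lcp1, an actin bundler of leukocytes, from 2.69 to 1.55 TPM (-0.58, 0.0223). Relative to cisplatin alone 22 of 26 were lower after calorie restriction, beside 37.4% of all genes, and 11 after hypoxia, beside 13.1%. Of 13 tested actin genes listed as textbook targets of serum response factor, 8 rose, 1 fell and 4 did not pass. Tpm1 was at 1.22 (limma, adjusted p = 0.000125), Flna at 1.20 (0.000133) and Myl9 at -1.26 (0.000164). Actb, Actg1, Tpm1 and Flna rose and stand in both lists, so the 2 counts are not separate.

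Markers of several cell types also differed between saline and cisplatin. The summed TPM of 5 markers of injured proximal tubule was 2.20 to 4.39 in BL_vehicle, 1030 to 1110 in BL_cisplatin and 1.98 to 6.86 in CR_cisplatin, and 1240, 109, 677 and 2.51 in HP_cisplatin 1 to 4. The 8 proximal tubule markers summed to 22500 to 28200, 2000 to 2350, 23300 to 26000 and 2520, 5580, 6960 and 26200 TPM in the same order. Kap made up most of this sum, with 2220, 3660, 6160 and 23200 TPM in HP_cisplatin 1 to 4. Each of the other proximal tubule markers was higher in HP_cisplatin 2 than in HP_cisplatin 3, such as Slc34a1 (754 and 170 TPM) and Lrp2 (285 and 160 TPM). All 8 proximal tubule markers fell with cisplatin, and 4 of the 5 injury markers rose. Of these 4, Lcn2, Krt20 and Sox9 were under 1 TPM with saline and passed the filter only through cisplatin groups. The 4 distal tubule and thick ascending limb markers, which all fell, summed to 1590 to 2570, 172 to 460 and 1610 to 2150 TPM with saline, cisplatin and calorie restriction, and to 425, 787, 738 and 1720 TPM in HP_cisplatin 1 to 4. The 4 red blood cell markers, which all fell too, summed to 18 to 30, 0.33 to 1.16 and 1.18 to 50.9 TPM, and to 15.4, 1.17, 1.25 and 38.3 TPM after hypoxia. Their sum did not mirror the 9 genes within hypoxia, being higher in HP_cisplatin 1 than in HP_cisplatin 2 and 3. Beside the counts of markers that rose or fell stand the 38.0% of all tested genes called higher and 28.8% called lower with cisplatin. HP_cisplatin 1, where 8 of the 9 genes were at the cisplatin level, was the hypoxia library with the highest injury sum and the lowest proximal tubule sum.

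Counts of leukocyte, stromal and other markers stand beside 38.0% of all tested genes called higher and 28.8% called lower with cisplatin. Those of macrophage and podocyte markers lie near these shares. The 12 macrophage and monocyte markers summed to 47.1 to 63.5 TPM in BL_vehicle, 115 to 136 in BL_cisplatin, 40.7 to 67.1 in CR_cisplatin and 101, 95.7, 91.3 and 59.5 in HP_cisplatin 1 to 4, with 3 higher, 2 lower and 5 not called of 10 tested with cisplatin. Named after their values were seen, Cd68, a lysosomal glycoprotein of macrophages, rose from 1.72 to 56.7 TPM (log2 difference 4.39, limma, adjusted p = 5.73e-05), more than every one of the 9 genes but S100a6. Cd14, a co-receptor for lipopolysaccharide, rose from 1.80 to 26.2 TPM (3.29, 4.73e-05). Itgam, the remaining higher marker, was at most 0.307 TPM with saline. It passed the filter only through cisplatin groups, so its call is no independent test. The 2 lower markers were Csf1r, which fell from 12.6 to 4.04 TPM (-1.45, 0.000277), and Adgre1, from 1.67 to 0.667 TPM (-0.71, 0.00391). C1qa, C1qb and C1qc were not called, so the list did not move in 1 direction. In HP_cisplatin 1 to 4 Cd68 measured 47.5, 13.2, 31.6 and 1.86 TPM, high and low in the same libraries as Anxa2. The 8 neutrophil markers, which include S100a8 and S100a9, rose in sum from at most 0.556 to 5.82 to 8.31 TPM, and were 0.542 to 3.69 after calorie restriction and 4.09, 2.13, 1.83 and 4.03 after hypoxia. For 9 fibroblast markers the sums were 48.1 to 71.1 and 85.6 to 97.0 TPM with saline and cisplatin, with 4 higher and 4 not called. The 3 parietal epithelial markers went from 25.2 to 32.5 up to 69.6 to 94.0 TPM, with 2 higher and 1 not called. The 5 urothelial markers went from 0.604 to 9.28 up to 7.94 to 22.7 TPM, with 3 higher and 2 not called. Of the higher urothelial markers, Krt5 was at most 0.381 TPM with saline. It passed the filter only through cisplatin groups, so its call is no independent test. The 8 lymphocyte markers summed to 0.433 to 1.35 TPM over all libraries and were under the filter, so none was tested. Their means differed in direction: between saline and cisplatin Cd79a went from 0.0729 to 0.725 TPM, Cd8a from 0.27 to 0.0182 TPM, Cd3e from 0.182 to 0.0271 TPM and Cd2 from 0.206 to 0.0318 TPM. The 7 endothelial markers summed to 92.1 to 113 TPM with saline and 58.6 to 72.0 TPM with cisplatin. Of these, 5 fell, 1 was not called and 1, Cdh5, rose (0.31, limma, adjusted p = 0.00973). Of 5 podocyte markers 2 rose and 1 fell, of 5 principal cell markers 3 fell, of 5 intercalated cell markers 2 fell, and of 3 tested adipocyte markers none was called. No marker was at 0 in all libraries. The part of these cell types in the rise of the 9 genes was not tested.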

How the data were processed

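The authors deposited 1 table of TPM per gene and library, and the unit was read from column sums of 1000000 and from whole-read steps. Per the submitters' processing notes the tools were STAR 2.5, Subread 1.5 and its featureCounts, and the builds GRCm38 and mm10. Their settings, the strand of counting and the treatment of reads with several matches are not given in the sources used here. Libraries were made from total RNA depleted of ribosomal RNA, per the labels' protocols.

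The 9 genes, the gene and marker lists and the motifs were chosen with earlier results of these data known. Of 46078 genes, 13880 were at 0 in all libraries, and 15014 reached 1 TPM in 4 or more libraries and were tested, including all 9. A gene under 1 TPM in every saline library could pass this filter only through cisplatin groups, so its call as higher is no independent test. Such genes included Anxa8, S100a8, S100a9, Trpv6, Itgam, Krt5, Lcn2, Krt20 and Sox9. On log2(TPM + 1), limma 3.58.1 in R 4.3.3 (statmod 1.5.0) modelled the 4 groups over all 16 libraries, with no other term and a trended, robust prior variance. Tests were 2-sided, p-values were adjusted by Benjamini-Hochberg over all genes tested, and the threshold was 0.05. Replicates are numbered in the order of the labels, which number none. Read counts were recovered from the deposited TPM: 24571 of 32198 genes with reads (76.3%) were whole within 0.0001 reads with their GENCODE M21 exon length, and 7627 with a length found by search. Both steps were tested on simulated data. Recovered counts were used for depth, for closeness of libraries and for voom (limma) on 16762 genes with a mean of at least 20 reads.

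Named from each list were the 3 genes with the smallest adjusted p with cisplatin and up to 3 that moved against the 9 genes, plus the 3 genes most like each member. Alternatives were a pseudocount of 0.1, no filter, a filter of 5 TPM, voom scaled by library totals (chosen after seeing the data, in place of planned TMM factors), only the 2 groups compared, a spread of its own for each group, composition (the most abundant, mitochondrial and red blood cell genes left out), the title code as a term, and each library left out in turn. Proteins are not shown.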

Additional observations from a re-analysis of the deposited data

Results flagged for a closer look

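In each group of 4 libraries the gap between the highest or lowest library and its nearest neighbour was compared with the group's range, for all 9 genes in all groups (36 groups of values); chance gives such a gap in about 1 of 20 groups. It was wide in 3. Anxa2 measured 11.9 TPM in CR_cisplatin 1 and 9.44 to 9.76 TPM in the other calorie-restricted libraries, with a gap of 0.856 of the range. Anxa3 measured 3.51 TPM in BL_vehicle 3 and 2.58 to 2.60 TPM in the other saline libraries (0.975). Tmsb10 measured 40.0 TPM in BL_cisplatin 4 and 33.3 to 34.3 TPM in the other cisplatin libraries (0.845). All 3 lie within their group's side of the difference between saline and cisplatin.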

How the results depend on the processing

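In CR_cisplatin against BL_cisplatin all 9 genes passed, and against BL_vehicle none did, under every alternative run. The fit of CR_cisplatin against BL_cisplatin with the title code as a term rests on CR_cisplatin 1 alone. With the title code as a term the count was 5 of 9 in BL_cisplatin against BL_vehicle, 0 in HP_cisplatin against BL_cisplatin and 0 in CR_cisplatin against HP_cisplatin. With only the 2 groups compared it was 0 in all 3 comparisons with hypoxia, whose wide spread then stands alone. Without a filter it was 5 in HP_cisplatin against BL_vehicle and 0 in CR_cisplatin against HP_cisplatin, where 32198 genes were tested. Composition gave 5 in HP_cisplatin against BL_cisplatin, beside 6451 of 18703 genes called in either direction. With 1 library left out the counts ran from 1 to 8 in HP_cisplatin against BL_cisplatin, from 1 to 8 in HP_cisplatin against BL_vehicle and from 0 to 8 in CR_cisplatin against HP_cisplatin. The differences between CR_cisplatin and BL_vehicle lay near 0 and changed sign: with 1 library left out Anxa1 ran from -0.09 to 0.17, Anxa2 from -0.12 to 0.15, Anxa5 from -0.06 to 0.02, S100a6 from -0.13 to 0.17 and Tmsb10 from -0.04 to 0.06. With the title code as a term Anxa1 was at -0.02, Anxa2 at -0.06 and Tmsb10 at -0.04. Of 1296 recomputed differences 1135 kept direction and side of the threshold, 130 no longer passed, 9 newly passed and 22 changed sign, all of the last in this comparison. Composition raised the median difference over all genes from 0.08 to 0.25 in BL_cisplatin against BL_vehicle, and the share of calls that were higher from 56.9% to 68.7%, with all 9 still higher. In HP_cisplatin against BL_cisplatin that share went from 55.5% to 30.0%, and in CR_cisplatin against BL_cisplatin from 44.4% to 32%. Genes called fell from 10032 to 3413 in BL_cisplatin against BL_vehicle with the title code as a term and from 10100 to 6327 in CR_cisplatin against BL_cisplatin. With only the 2 groups fitted they went from 4420 to 0 in HP_cisplatin against BL_cisplatin, from 4398 to 11 in HP_cisplatin against BL_vehicle, from 3642 to 0 in CR_cisplatin against HP_cisplatin and from 8 to 80 in CR_cisplatin against BL_vehicle. With a spread of its own for each group these were 2068, 2563, 2279 and 109. At 169 to 405 reads per saline library, Anxa1 is the gene whose values depth limits most. The causes were not tested. No paired analysis was run, because the labels describe no pairing of libraries between groups.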
